A study of Mus musculus with 10 samples.

Results

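Genes of the canonical Wnt pathway were examined in 10 mouse embryonic stem cell (ESC) lines, taking β-catenin (Ctnnb1), 3 transcription factors of the Tcf/Lef family (Tcf7l1, Tcf7 and Lef1) and 6 genes known as Wnt targets (Axin2, Notum, Nkd1, Sp5, Cdx1 and Lgr5). The members were chosen by gene symbol, with the row of highest mean where a symbol had several, and all 10 were found among the 20206 genes of the table. RNA sequencing was carried out on 5 lines from blastocysts of mothers fed a low protein diet (LPD, 9% casein) and 5 lines from blastocysts of mothers fed a normal protein diet (NPD, 18% casein). Dams and sires were C57BL/6 mice, dams were aged 7 to 9 weeks, and the diets were given until embryonic day 3.5. By the study's methods the lines are male, come from different mothers, were derived on feeder fibroblasts with leukaemia inhibitory factor, and were grown without fibroblasts for the RNA. Every line comes from a single embryo and counts as 1 replicate. The LPD lines carry the numbers 1, 4, 6, 20 and 40, and the NPD lines 8, 15, 21, 36 and 51.

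In the absence of a Wnt signal, a destruction complex built on Axin and Apc marks β-catenin for degradation. A Wnt ligand bound to Frizzled and Lrp receptors stops this complex, β-catenin accumulates and enters the nucleus, and there it binds Tcf/Lef factors at target genes, several of which encode inhibitors that feed back on the pathway. In mouse ESCs, Tcf7l1 is known chiefly as a repressor of pluripotency genes, and β-catenin relieves that repression as well as serving in cell adhesion.

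Values are normalized estimated counts per gene, not whole reads. The lines differed in depth, expressed as read equivalents, an estimate of how many reads stand behind a line's total. The NPD lines held 20384021 to 23177434 read equivalents. LPD lines 1 and 20 held 21874041 and 24151946, and LPD lines 4, 6 and 40 held 5854494, 12329598 and 11239503. These 3 lines measure weakly expressed genes with the least precision, and in LPD line 4 a single read corresponded to a normalized value of 2.88.

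The label of the cells was checked against marker genes. All 10 markers of ESCs were present in all 10 lines, with Pou5f1 between 18250 and 30420 and Nanog between 5141 and 11571. Transcripts of the primitive streak, a tissue in which Wnt signalling is active, were scarce, 4 of 7 having a mean under 10, with T between 1.98 and 12.8, Mixl1 between 1.58 and 10.1, and Mesp1 listed at 0 in at least 1 line. Eomes, the gene of highest mean value in that list and also listed as a trophectoderm marker, was 245 to 412. The summed level of 12 fibroblast markers ranged from 614 in LPD line 40 to 6711 in NPD line 15, with Col1a1 the gene of highest mean value, and in LPD line 6 and NPD line 8 it was 4084 and 2522. The defining markers Dcn, Lum, Postn and Prrx1 were each listed at 0 in at least 1 line but all were present in NPD line 15. Lum was 111 there and at most 1.39 elsewhere, a value of about 1 read. Prrx1 was highest in the same line at 127, followed by LPD line 6 at 37.5 and NPD line 8 at 25.2. Only Postn and Twist1 of the list peaked elsewhere, Postn in LPD line 6 at 25.6 and Twist1 in LPD line 20 at 485. Every other marker of the list, Col1a1 included, was highest in NPD line 15. The summed level of 8 primitive endoderm markers ranged from 967 in NPD line 15 to 11490 in LPD line 1, with Lama1 highest by mean value. No difference in either sum was detected between the diets on the log2 scale (exact permutation test, two-sided as throughout, p = 0.468 and p = 0.484). Of the single markers tested, 8 of 10 for fibroblasts were lower in LPD, with a median log2 fold change of −0.87, and 8 of 8 for primitive endoderm were higher, with a median of 0.44, none with an unadjusted p under 0.05 in limma. Of 7 trophectoderm markers, the highest by mean value was Tfap2c, and their sum was 2219 to 4640. Of 5 neural markers, the highest was Olig2, their sum was 1743 to 2840, and Neurog2 was listed at 0 in at least 1 line. The lists held 10 ESC, 10 fibroblast, 8 primitive endoderm, 6 trophectoderm, 3 primitive streak and 4 neural markers tested in limma. Olig2 was the single gene of all 6 lists with an unadjusted p under 0.05, beside 5.02% of all genes tested. Its value was lower in LPD (exact permutation test, p = 0.0159), with an adjusted p of 0.839 (limma). Mixl1, too low for limma, gave an exact permutation p of 0.0476, but its values in LPD lines 4, 6 and 40 rest on 1 or 2 reads, so no direction is given. As these are bulk samples, fewer cells of a type and less RNA per cell cannot be told apart. The Y-linked gene Ddx3y was 174 in LPD line 4 and 7.70 in NPD line 15, against 1110 to 1493 in the other 8 lines. Diet differences of the members and of the pathway genes named are therefore also given without these 2 lines, where a direction or call changes. Single markers, Olig2 included, were not compared without them.

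β-Catenin had the highest level per kb of transcript of the 10 members and was among the least variable. Ctnnb1 (ENSMUSG00000006932; GRCm38 chromosome 9, 120929216 to 120960507, plus strand, as annotated in GENCODE M21) had values of 13302, 10614, 12644, 14912 and 16370 in LPD lines 1, 4, 6, 20 and 40, and 13605, 12006, 15494, 12168 and 15786 in NPD lines 8, 15, 21, 36 and 51. LPD lines lay at both ends of the range, line 4 lowest and line 40 highest, with the NPD lines between them. The LPD mean was 13568 ± 2197 (SD, n = 5) and the NPD mean 13812 ± 1784 (SD, n = 5). Fold changes are given as LPD against NPD on log2(value + 1), and for Ctnnb1 this was −0.03 (standard error 0.13, 95% interval −0.30 to 0.24; exact permutation test, p = 0.841). The sign of this small difference changed without LPD line 4 and NPD line 15, to 0.005, and without LPD line 4 (0.05), NPD line 21 (0.01) or NPD line 51 (0.02) alone. Exons of Ctnnb1 overlap those of Ulk4 on the opposite strand, and no statement of strand was found for the libraries, so reads there cannot be assigned with certainty. Ulk4 itself was low, with values of 17.2 to 111.

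Among the DNA-binding partners of β-catenin, Lef1 varied far more between lines than Tcf7l1 or Tcf7. Tcf7l1 (ENSMUSG00000055799, chromosome 6, 72626378 to 72789254, minus strand) was 1638, 2297, 2575, 2718 and 1912 in LPD lines 1, 4, 6, 20 and 40, and 2229, 2119, 2087, 2633 and 2674 in NPD lines 8, 15, 21, 36 and 51. The lowest line, LPD line 1, and the highest, LPD line 20, were both LPD, and the groups overlapped. Tcf7l1 had a log2 fold change of −0.09 (95% interval −0.39 to 0.21, standard error 0.14; exact permutation test, p = 0.563), and 0.01 without LPD line 1.

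Tcf7, which encodes Tcf1, an activating partner of β-catenin in ESCs (ENSMUSG00000000782, chromosome 11, 52252371 to 52283014, minus strand), was 892, 869, 785, 916 and 678 in LPD lines 1, 4, 6, 20 and 40, and 688, 794, 725, 737 and 741 in NPD lines 8, 15, 21, 36 and 51. LPD lines 1, 4 and 20 stood above all NPD lines, LPD line 6 lay within the NPD range, and LPD line 40 was the lowest of the 10. The means were 828 ± 97.4 (SD, n = 5) and 737 ± 38.3 (SD, n = 5), which is a log2 fold change of 0.16 (95% interval −0.06 to 0.38, standard error 0.10; exact permutation test, p = 0.111). Of the members, Tcf7 had the narrowest spread, with 77.0% of the 10455 genes whose mean reached 100 varying more between lines. Leaving out LPD line 40 moved its p to the other side of 0.05: the log2 fold change was then 0.23 (exact permutation test, p = 0.0238). Without LPD lines 4, 6 and 40 it was 0.30 with no overlap of the groups (exact permutation test, p = 0.0476). That setting leaves only LPD lines 1 and 20, the highest for Tcf7, and this p is the smallest it can give. No member had an adjusted p under 0.968 in it (limma). The adjusted p without LPD line 40 was 0.672, and 0.945 to 1.00 without any other single line (limma, Benjamini-Hochberg over all genes tested).

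Lef1, a further Tcf/Lef factor and itself known as a Wnt target (ENSMUSG00000027985, chromosome 3, 131110471 to 131224356, plus strand), was 215, 284, 151, 164 and 415 in LPD lines 1, 4, 6, 20 and 40, and 42.5, 436, 499.7, 739 and 272 in NPD lines 8, 15, 21, 36 and 51. NPD lines held both the lowest value, in line 8, and the highest, in line 36, and every LPD line fell between them. The highest line exceeded the lowest 17.4-fold, and only 0.679% of those 10455 genes varied more between lines. The log2 fold change was −0.32 with a wide error (standard error 0.62, 95% interval −1.66 to 1.02; exact permutation test, p = 0.738). Its size depended on single NPD lines. Without NPD line 8 it was −0.998 (exact permutation test, p = 0.0476), with the groups still overlapping, and without NPD line 36 it was 0.02. Adjusted p lay between 0.971 and 1.00 when each line was omitted (limma).

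On a scale of value per kb of transcript, which allows levels of different genes to be set side by side, the Tcf/Lef family was dominated by Tcf7l1. With the median length of the annotated protein-coding transcripts, Tcf7l1 stood at 1212 ± 191 per kb (SD, n = 10 lines), Tcf7 at 372 ± 40.2, Lef1 at 95.3 ± 60.5 and Tcf7l2, the fourth gene of the family, at 139 ± 30.3. Tcf7l1 made up 59.9% to 71.4% of the summed level per kb of these 4 genes in a line, and 52.2% to 64.6% when the longest transcript was used. The share of Tcf7 was 16.7% to 29.2%. Lef1 ranged from 0.753% in NPD line 8 to 10.5% in NPD line 36. By diet, the LPD lines gave Tcf7l1 a share of 65.8% ± 4.52 (SD, n = 5) and the NPD lines 66.9% ± 3.89 (SD, n = 5), a difference smaller than the spread within either diet. The share of Tcf7 was 22.4% ± 4.01 (SD, n = 5) in the LPD lines and 19.0% ± 1.76 (SD, n = 5) in the NPD lines, a difference larger than the NPD spread, smaller than the LPD spread, and not tested.

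**Figure D1:**
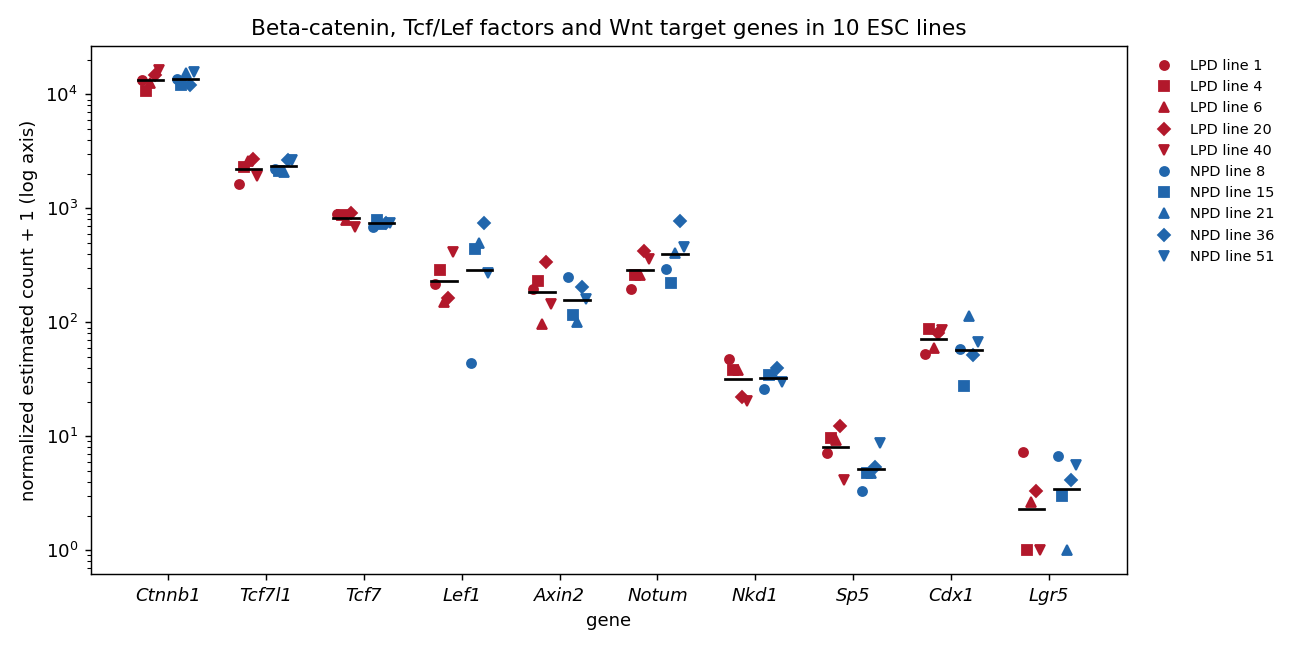
Normalized estimated count plus 1 (log axis) of the 10 genes in each of 5 LPD lines (red) and 5 NPD lines (blue); each symbol is 1 line and black bars are means of the log2 values. The diets overlap for every gene, and Lef1 spans 42.5 in NPD line 8 to 739 in NPD line 36.

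Turning to the target genes, those encoding feedback inhibitors of the pathway were found in every line, at different levels. Axin2, a scaffold of the destruction complex and a widely used readout of β-catenin activity (ENSMUSG00000000142, chromosome 11, 108920349 to 108950783, plus strand), was 195, 228, 95.7, 338 and 144 in LPD lines 1, 4, 6, 20 and 40, and 251, 116, 101, 203 and 158 in NPD lines 8, 15, 21, 36 and 51. LPD held both the highest line, line 20, and the lowest, line 6, and the other lines of the 2 diets were intermixed. The means were 200.3 ± 92.3 (SD, n = 5) and 166 ± 62.3 (SD, n = 5), which is a log2 fold change of 0.23 (95% interval −0.49 to 0.95, standard error 0.33; exact permutation test, p = 0.571). It came to 0.01 without LPD line 20, whose value was the highest, 0.46 without LPD line 6, 0.04 without LPD line 4 and NPD line 15, and 0.71 without LPD lines 4, 6 and 40 (exact permutation test, p = 0.238).

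Notum, a secreted enzyme that inactivates Wnt ligands by removing their lipid (ENSMUSG00000042988, chromosome 11, 120653788 to 120661175, minus strand), was 196, 260.0, 259.5, 422 and 359 in LPD lines 1, 4, 6, 20 and 40, and 293, 219, 406, 777 and 460.2 in NPD lines 8, 15, 21, 36 and 51. The 2 highest lines, 36 and 51, were NPD and the lowest, line 1, was LPD, with overlap between. For Notum the log2 fold change was −0.44 (standard error 0.30, 95% interval −1.10 to 0.22; exact permutation test, p = 0.262). Without NPD line 36 it was −0.20. Without NPD line 15 it was −0.65, with p = 0.0376 in limma before adjustment and p = 0.0952 in the exact permutation test. Adjusted p ranged from 0.903 to 1.00 when each line was omitted (limma).

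Nkd1, which encodes a Dishevelled-binding inhibitor (ENSMUSG00000031661, chromosome 8, 88521354 to 88594884, plus strand), was low, with 46.2, 37.0, 37.4, 21.1 and 19.6 in LPD lines 1, 4, 6, 20 and 40, and 24.8, 33.3, 34.3, 38.8 and 28.9 in NPD lines 8, 15, 21, 36 and 51. LPD lines were split, with line 1 above all NPD lines and lines 20 and 40 below them all, while lines 4 and 6 lay within the NPD range. These values rest on 12.4 to 60.8 read equivalents a line. For Nkd1 the log2 fold change was −0.05 (standard error 0.30, 95% interval −0.69 to 0.59; exact permutation test, p = 0.865), and it took the other sign without LPD line 20 (0.08), LPD line 40 (0.10) or NPD line 36 (0.02).

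The remaining targets encode transcription factors and a receptor, and all were low. Cdx1, a homeobox factor of posterior patterning (ENSMUSG00000024619, chromosome 18, 61018862 to 61036199, minus strand), was 51.9, 86.2, 58.4, 79.2 and 85.4 in LPD lines 1, 4, 6, 20 and 40, and 57.8, 26.6, 112, 50.6 and 66.5 in NPD lines 8, 15, 21, 36 and 51. Both the lowest line, 15, and the highest, 21, were NPD, and all LPD lines lay between them. A log2 fold change of 0.32 was obtained (standard error 0.33, 95% interval −0.40 to 1.03; exact permutation test, p = 0.421), against 0.05 without NPD line 15, 0.56 without NPD line 21, and −0.02 without LPD line 4 and NPD line 15.

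Sp5, a zinc finger factor regarded as a direct target of β-catenin (ENSMUSG00000075304, chromosome 2, 70474923 to 70477729, plus strand), was barely present, at 6.11, 8.62, 8.34, 11.3 and 3.16 in LPD lines 1, 4, 6, 20 and 40, and 2.34, 3.79, 3.77, 4.33 and 7.68 in NPD lines 8, 15, 21, 36 and 51. LPD lines 4, 6 and 20 stood above all NPD lines and LPD line 40 lay among the lowest. In read equivalents this is 2.00 to 14.9 a line, with 3 in LPD line 4 and 2 in LPD line 40. The order of the lines and the fold change are therefore uncertain. Sp5 had a log2 fold change of 0.64 (exact permutation test, p = 0.119), and 0.88 without LPD line 40 (exact permutation test, p = 0.0238). Lgr5, a receptor for R-spondins (ENSMUSG00000020140, chromosome 10, 115450311 to 115587780, minus strand), was listed at 0 in LPD lines 4 and 40 and NPD line 21 and was at most 6.34 in the other lines. No fold change is given for it. Lgr4, a related receptor, was 1082 to 1507.

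Ordered by mean value per kb, the members ran from Ctnnb1 (17113 ± 2364, SD, n = 10 lines) through Tcf7l1, Tcf7, Axin2 (222 ± 92.5), Notum (181 ± 84.6), Lef1, Cdx1 (38.5 ± 13.6), Nkd1 (10.6 ± 2.78) and Sp5 (2.83, between 1.12 and 5.38) to Lgr5. Ctnnb1 was above Tcf7l1, and Tcf7l1 above Tcf7, in all 10 lines with no overlap of their ranges. Axin2 and Notum did not differ beyond their spread, Axin2 being the higher of the pair in 5 of 10 lines. Several annotated transcripts of Ctnnb1 and Axin2 are short, and with the longest transcript their levels per kb were 3779 and 42.9. This left Ctnnb1 first, but placed Axin2 below Lef1 and next to Cdx1, which it exceeded in 6 of 10 lines, so the rank of Axin2 depends on the length taken.

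The 2 diets were compared over all genes with limma on log2(value + 1), taking 14354 genes whose mean reached 10 and adjusting p by the Benjamini-Hochberg method. Of the 10 members, 8 passed this filter and Sp5 and Lgr5 did not. None of the 8 had an unadjusted p under 0.05 in limma, against 721 of all genes tested, or 5.02%, with 2.84% of all genes tested being higher and 2.18% lower in LPD. Adjusted p ranged from 0.994 to 0.997 for the 8 members (limma), and no gene of the table was under an adjusted p of 0.1. Of the 721 genes, 408 were higher in LPD, or 56.6%. This share was 40.2% after setting all lines to an equal total and 50.4% after quantile normalization. It was 46.2% with no filter and 47.8% without LPD line 6. The balance of directions thus depends on the scaling, on the filter and on LPD line 6. Log2 fold changes were positive for 3 members (Axin2, Tcf7 and Cdx1) and negative for 5, with a median of −0.04 beside 0.002 for all genes tested. The ranges of the diets overlapped for each of the 10 members, while 1.02% of all genes tested had no overlap. The 95% intervals of Ctnnb1, Tcf7l1 and Tcf7 lay within −0.39 and 0.38. The intervals of Lef1, Axin2, Notum, Nkd1 and Cdx1 reached beyond these bounds on at least 1 side, so larger differences in these genes lie within what 5 lines a group leave possible.

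**Figure D2:**
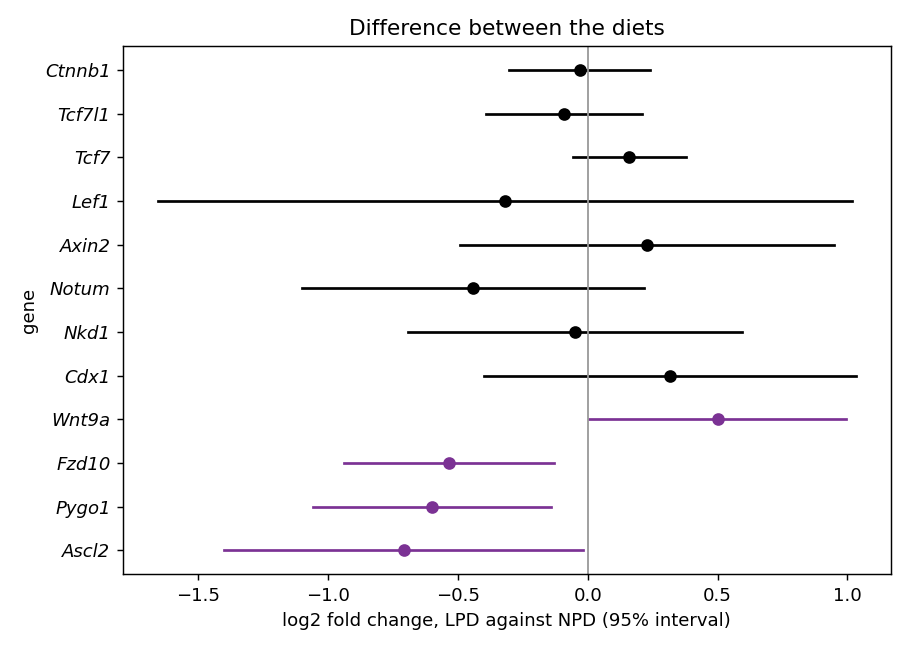
Log2 fold change, LPD against NPD, with its 95% interval from limma for the 8 members tested (black) and for 4 other pathway genes with an unadjusted p under 0.05 (purple). The intervals of the 8 members include 0, from the narrow one of Tcf7 (−0.06 to 0.38) to the wide one of Lef1 (−1.66 to 1.02).

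Whether the members rose and fell together from line to line was examined over the 28 pairs of the 8 members tested. Their correlations were evenly divided, 14 positive and 14 negative, with a median Pearson's r of −0.01. No pair had a permutation p under 0.05, by Pearson's r or by Spearman's rho, and the smallest adjusted p over the 28 pairs were 0.870 and 0.823. The pair with the smallest p was Nkd1 and Ctnnb1, which ran in opposite directions (r = −0.62, permutation p = 0.0617; rho = −0.61, permutation p = 0.0679), and r was −0.37 without the 2 lines farthest from the median of Nkd1. The next was Tcf7l1 and Notum (r = 0.59, permutation p = 0.0695; rho = 0.61, permutation p = 0.0666), with r = 0.40 without the 2 lines farthest from the median of Tcf7l1. Both relations were weaker without those lines, but leaving them out also narrows the range of values, which can lower r by itself. With the diet means removed r was −0.63 and 0.57. On omitting single lines r ranged from −0.70 to −0.48 for the first pair, with an unadjusted p under 0.05 without LPD line 1 or NPD line 21, and from 0.43 to 0.70 for the second, with one under 0.05 without LPD line 6. Cdx1 and Ctnnb1 rose to r = 0.81 without LPD line 4 (exact permutation p = 0.003), from 0.45 over all lines. Other pairs moved as well when the 2 lines farthest from the median of the first gene were left out, and 3 of the 28 then had an unadjusted p under 0.05: Notum and Ctnnb1 went from 0.31 to 0.84, Tcf7 and Ctnnb1 from −0.41 to −0.80, and Tcf7 and Nkd1 from 0.33 to 0.72. The smallest adjusted p over the 28 pairs was then 0.238. No joint rise of the targets was detected. Axin2 and Notum gave r = 0.18 (permutation p = 0.613; rho = 0.27, permutation p = 0.443), and r = −0.02 without the 2 lines farthest from the median of Axin2. For Axin2 and Lef1 r was −0.38 (permutation p = 0.281; rho = −0.30, permutation p = 0.410), and −0.57 without those lines. LPD line 20, for example, was highest for Axin2 yet among the lowest for Lef1, and NPD line 8 was second highest for Axin2 and lowest for Lef1.

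**Figure D3:**
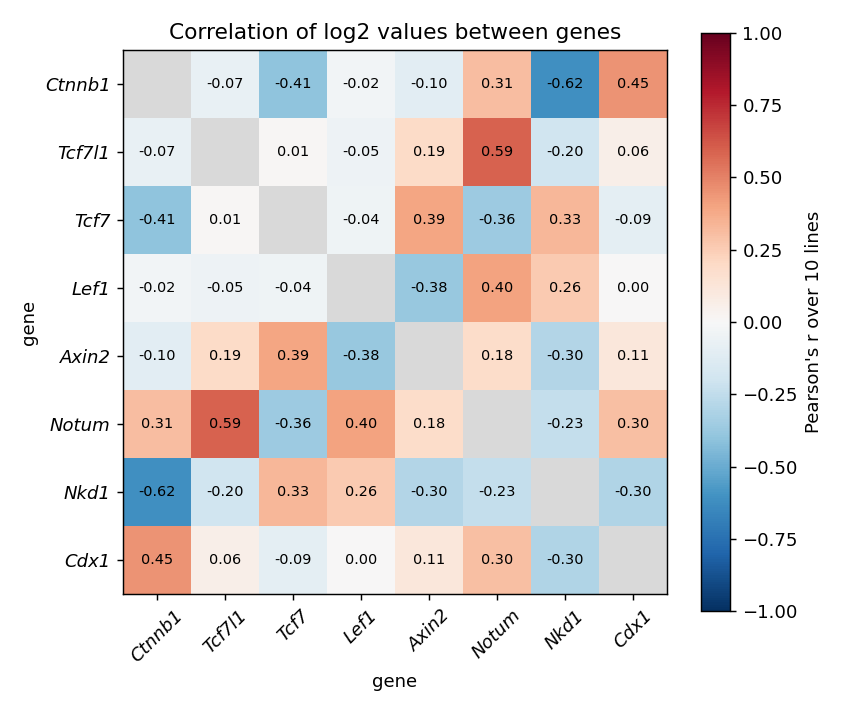
Pearson's r between the log2 values of the 8 members tested over the 10 lines, from −1 (blue) to 1 (red), with the diagonal left grey. Positive and negative values are intermixed, from −0.62 for Nkd1 and Ctnnb1 to 0.59 for Tcf7l1 and Notum.

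The members were also set against the summed level of each of the 6 marker lists, 48 relations in all. No relation had an adjusted p under 0.05, the smallest being 0.347, and 4 had a permutation p under 0.05. On omitting single lines 1 relation passed, that of Lef1 with ESC markers without NPD line 36 (r = 0.86, adjusted p = 0.0497), against r = 0.56 over all lines. The smallest p over all lines was for Cdx1 and fibroblast markers (r = −0.75, permutation p = 0.0107; rho = −0.56, permutation p = 0.0962), with r = −0.47 without the 2 lines farthest from the median of the marker sum. That relation was weaker without those 2 lines, whose removal also narrows the range of the marker sum. Cdx1 also ran with the sum of primitive streak markers, 81.2% to 88.4% of which was Eomes in each line (r = 0.71, permutation p = 0.0169; rho = 0.76, permutation p = 0.0156), with r = 0.73 without the 2 lines farthest from the median of the marker sum. Notum ran against trophectoderm markers (r = −0.70, permutation p = 0.0217; rho = −0.71, permutation p = 0.0267), with r = −0.76 without the 2 farthest lines. The last of the 4, Tcf7l1 with neural markers (r = 0.68, permutation p = 0.0289; rho = 0.60, permutation p = 0.0718), gave r = 0.61 without the 2 farthest. For Cdx1, Notum and Tcf7l1 the part of such cells in the values was not tested. Each of the 4 relations lost a permutation p under 0.05 in some alternatives. Cdx1 did so with fibroblast markers without NPD line 15 (r = −0.49), and with primitive streak markers without NPD line 21 (r = 0.61). Notum did so without NPD line 15 (r = −0.64) and after setting all lines to an equal total (r = −0.62). Tcf7l1 did so after quantile normalization (r = 0.62) and without LPD lines 1, 6 or 20 or NPD line 36 (r = 0.50, 0.65, 0.62 and 0.65). With the values as deposited, Lef1 over all 10 lines gave no permutation p under 0.05 with any of the 6 lists, but with ESC markers r was 0.63 after setting all lines to an equal total and 0.68 after quantile normalization, each with an unadjusted permutation p under 0.05. Lef1 with primitive endoderm markers went from r = 0.30 to 0.77 without the 2 lines farthest from the median of the marker sum (exact permutation p = 0.0358).

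For each member with a mean of at least 100, the 2 genes whose log2 values ran closest to it over the 10 lines were sought among 10455 genes, as a description. Axin2 was followed most closely by B3gnt7 (r = 0.96) and Pccb (r = 0.93). For Lef1 the genes were Coro2b (r = 0.91) and Hmgb3 (r = 0.91), and for Tcf7 they were Trib1 (r = 0.92) and Rlim (r = 0.90). Tcf7l1 was followed by Cherp (r = 0.95) and Ints7 (r = 0.95), Notum by Smyd2 (r = 0.92) and Ell (r = 0.92), and Ctnnb1 by Mrps11 (r = 0.98) and Rnf115 (r = 0.98). No member was among these genes, and no gene appeared for 2 members. On omitting single lines the lowest of these values was 0.82, for Notum and Ell. The pairs were picked for the highest r over these same lines, so r on omitting a line is no test of them.

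Other genes of the pathway were taken from 9 lists that hold 107 genes besides the members. Of these, 104 had a row and 85 were tested, while Wnt1, Wnt9b and Dkk4 were not analysed here. At an unadjusted p under 0.05 in limma, 1 was higher and 3 were lower in LPD, or 4.71% of those tested beside 5.02% of all genes, and 0 had an adjusted p under 0.1. The median log2 fold change was −0.01, with 41 positive and 44 negative. The counts of single lists moved with the processing. With depth as a covariate or without LPD lines 4, 6 and 40, the nuclear cofactors went from 1 to 4 genes. The ligands and the further targets went from 1 to 0 in the same settings. Over all genes the count was 599 of 14354 with depth as a covariate and 676 of 14377 without those lines, against 721 of 14354. On omitting single lines, each of the 9 lists held between 0 and 2 such genes, and 549 to 904 of all genes passed.

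At the level of ligands, 17 of 19 Wnt genes had a row and 10 were tested, none with a mean above 81.1. Single lines could be higher, as Wnt7b was 339 in LPD line 6, against 21.1 to 115 in the other lines. Wnt9a, the ligand of highest mean, was the 1 ligand with an unadjusted p under 0.05. It was 71.1, 80.4, 150.4, 88.7 and 90.2 in LPD lines 1, 4, 6, 20 and 40, and 82.7, 61.5, 55.0, 57.6 and 73.5 in NPD lines 8, 15, 21, 36 and 51. LPD lines 6, 20 and 40 were above all NPD lines, and lines 1 and 4 were within their range. Wnt9a had a log2 fold change of 0.50 (95% interval 0.01 to 1.00; exact permutation test, p = 0.0397; adjusted p = 0.987, limma), and 0.33 without LPD line 6, the highest (exact permutation test, p = 0.0714). Its unadjusted p in limma held under 0.05 without LPD line 1, LPD line 4 or NPD line 8, but not without any of the other 7 lines, where log2 fold changes were 0.33 to 0.54, nor after setting all lines to an equal total (log2 fold change 0.47) or quantile normalization (0.50). The same loss was seen with no filter (0.50), array weights (0.44), depth as a covariate (0.45), without LPD line 4 and NPD line 15 (0.53) and without LPD lines 4, 6 and 40 (0.28).

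Of 17 genes for secretion and receptors, all were tested. Fzd5, a Frizzled receptor, had the highest mean value and lay between 1974 and 2821. Fzd10, another Frizzled receptor, was lower in LPD, with 154, 149, 125, 114 and 141 in LPD lines 1, 4, 6, 20 and 40, and 148, 213, 219, 275 and 157 in NPD lines 8, 15, 21, 36 and 51. NPD lines 15, 21 and 36 were well above the LPD lines, whereas NPD line 8 lay within their range. Fzd10 thus had a log2 fold change of −0.53 (95% interval −0.94 to −0.13; exact permutation test, p = 0.0238; adjusted p = 0.839, limma). Without NPD line 8 the groups did not overlap (log2 fold change −0.64). Without LPD lines 6, 20 or 40 the exact permutation p was 0.0635, 0.0635 and 0.0556, at log2 fold changes of −0.50, −0.47 and −0.55. It was 0.0571 without LPD line 4 and NPD line 15 (log2 fold change −0.54) and 0.190 in the exact permutation test without LPD lines 4, 6 and 40 (−0.57), where the unadjusted p in limma was also over 0.05.

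In the R-spondin axis 5 of 8 genes were tested, with the receptor Lgr4 the highest by mean value at a log2 fold change of 0.01, and in the secreted antagonists 9 of 15, with Sfrp1, a secreted Frizzled-like protein, the highest at 1364 to 2564. No gene of either list had an unadjusted p under 0.05. The same held for the 12 genes tested of the Dishevelled and destruction complex list, which kept within log2 fold changes of −0.20 and 0.11 and were led by the casein kinase gene Csnk1a1 at 6714 to 9777.

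Among the 12 nuclear cofactors, all tested, Tle5, a co-repressor of the Groucho family, had the highest mean value (2784 to 5078), and Pygo1, which encodes a PHD finger protein that links β-catenin and Bcl9 to chromatin, was lower in LPD. It was 59.7, 48.8, 58.5, 36.8 and 58.6 in LPD lines 1, 4, 6, 20 and 40, and 93.6, 78.9, 91.2, 64.0 and 70.2 in NPD lines 8, 15, 21, 36 and 51. Every LPD line lay below every NPD line. Pygo1 averaged 52.5 ± 9.81 (SD, n = 5) and 79.6 ± 12.9 (SD, n = 5) in the diets, with a log2 fold change of −0.60 (95% interval −1.06 to −0.14; exact permutation test, p = 0.00794, the smallest that 5 lines against 5 can give). Its adjusted p was 0.839 (limma). Pygo1 was among the 4 pathway genes named, which were chosen for a low p. Of the 85 pathway genes tested besides the members, it was the 1 without overlap between the diets, beside 1.02% of all genes tested. With each line omitted the log2 fold change of Pygo1 was −0.67 to −0.48.

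Of 13 further genes known as β-catenin targets, 10 were tested. Tbx3, a T-box factor, had the highest mean value, at 2312 to 3478. Ascl2, a basic helix-loop-helix factor, was 40.3, 41.2, 23.6, 32.9 and 59.5 in LPD lines 1, 4, 6, 20 and 40, and 48.2, 121, 60.4, 44.3 and 60.4 in NPD lines 8, 15, 21, 36 and 51. NPD line 15 was far above the rest, and 4 of 5 LPD lines were below all NPD lines. For Ascl2 the log2 fold change was −0.71 (95% interval −1.40 to −0.02; exact permutation test, p = 0.0397; adjusted p = 0.987, limma), and −0.47 without NPD line 15 (exact permutation test, p = 0.0952). Its unadjusted p in limma held under 0.05 without LPD line 40, NPD line 8 or NPD line 36, but not without any of the other 7 lines, at log2 fold changes of −0.74 to −0.47. It was also lost with array weights (−0.605), depth as a covariate (−0.79), without LPD line 4 and NPD line 15 (−0.50) and without LPD lines 4, 6 and 40 (−0.76). The groups did not overlap without LPD line 40.

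A pair of gene groups outside the direct targets was described in the same way. The 5 pluripotency genes that Tcf7l1 is known to repress in ESCs were all tested, and none had an unadjusted p under 0.05. Esrrb, the highest of them by mean value and also listed as an ESC marker, was 9260 to 12799, with a log2 fold change of 0.09. The 5 genes of the cadherin junction likewise held none, and Ctnna1, the α-catenin gene and the highest of them by mean value, was 8932 to 13014 with a log2 fold change of 0.11.

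Promoter sequence from RefSeq (GRCm38.p6; 250 bases before to 50 bases after a gene's start) was matched for 7 of the 10 members, with 12 windows in all. Cdx1, Lgr5 and Notum had no entry. The Tcf/Lef motif was searched on both strands as CTTTGAA and as the forms that end otherwise, namely CTTTGAT, then also CTTTGTA, and last CTTTGTT. It was present in 2 of the 12 windows, 1 of Sp5 and 1 of 4 of Lef1, and in 16.9% of all 32851 windows. The window of Sp5 (chr2:70474673-70474972, plus strand) held 2 matches, starting at positions 29 and 147 of the window, and 1.94% of all windows held 2 or more. The window of Lef1 (chr3:131156044-131156343, plus strand), at a start inside the gene, held 1 match at position 104. Both are shown because they are the members' windows with a match, the motif or its reverse complement being in capitals; a match is a description and not a site.
Sp5: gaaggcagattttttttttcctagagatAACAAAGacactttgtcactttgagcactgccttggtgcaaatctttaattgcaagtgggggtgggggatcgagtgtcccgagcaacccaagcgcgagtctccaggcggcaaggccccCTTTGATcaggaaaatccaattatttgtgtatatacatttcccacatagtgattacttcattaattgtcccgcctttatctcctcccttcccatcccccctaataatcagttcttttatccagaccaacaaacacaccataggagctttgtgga
Lef1: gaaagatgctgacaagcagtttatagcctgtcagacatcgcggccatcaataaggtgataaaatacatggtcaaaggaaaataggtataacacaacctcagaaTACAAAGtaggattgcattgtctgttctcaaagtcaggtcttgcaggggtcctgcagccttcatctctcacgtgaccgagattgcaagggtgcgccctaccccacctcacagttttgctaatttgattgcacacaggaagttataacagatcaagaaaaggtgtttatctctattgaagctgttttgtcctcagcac
The values of Sp5 and Lef1 describe the whole gene, so the start used by Lef1 transcripts was not resolved.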

How the data were processed

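RNA sequencing values of 5 LPD and 5 NPD lines were used, all columns being mapped to a line. In the paper's methods, adaptors and reads of low quality were removed with cutadapt, transcripts of GRCm38 were quantified with Salmon and tested with Sleuth 0.30.0. The authors deposited values per gene whose unit is a normalized signal: estimated counts under a file label that names DESeq2. Low values were whole multiples of 1 read, within 0.15, in at least 92.7% of cases for genes with 1 transcript but at most 75.0% over all genes, so no count model was used. Of 20206 genes, 19918 were matched to GENCODE M21.

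Values were transformed as log2(value + 1), which understates the change of low genes, and genes with a mean of at least 10 were fitted with limma 3.58.1 in R 4.3.3 (eBayes with a trend, no covariate), which was tested on simulated data. Thresholds were an adjusted p of 0.1 for genes and 0.05 for correlations, and an unadjusted p of 0.05. Single genes were compared by two-sided exact permutation over 252 assignments, and correlations by 100000 permutations, with Benjamini-Hochberg adjustment over each family. Python 3.11.15 (numpy 2.4.6, pandas 2.3.3, scipy 1.17.1, matplotlib 3.10.9) served for the other steps. The genes named were every member, pathway genes with an unadjusted p under 0.05, the gene of highest mean in each list, and the 2 genes most like each member with a mean of at least 100. Marker genes came from the marker lists, while Ddx3y, Ulk4, Tcf7l2 and Wnt7b, and the markers given singly, were chosen after their values were seen. The members and lists were chosen with earlier results of these data known. The comparison with marker sums, and the alternatives for the other pathway genes and for the genes most like a member, were chosen after seeing the data. Alternatives were other pseudocounts, filters, scalings, limma settings, depth as a covariate, and lines left out.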

Additional observations from a re-analysis of the deposited data

Results flagged for a closer look

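Groups of 5 lines were examined for members, pathway genes with an unadjusted p under 0.05 in limma, and the gene of highest mean in each list. The 2 genes most like each member with a mean of at least 100, and the sums of marker lists, were also examined. Other genes named, such as Ddx3y, Lum and Postn, were not. Of the 92 groups examined, 5 held a line set apart from the other 4. Its gap to the nearest exceeded 0.71 of the range on the log2 scale, where chance gives about 1 in 20 groups. None was a member. Hmgb3, 1 of the 2 genes closest to Lef1, was highest in LPD line 40 at 1074, against 758 to 809 in the other LPD lines, and lowest in NPD line 8 at 605, against 962 to 1087 in the other NPD lines. Rlim, close to Tcf7, was highest in NPD line 15 at 2779, against 2022 to 2154 in the other NPD lines. Ell, close to Notum, was highest in LPD line 20 at 527, against 448 to 461 in the other LPD lines. The sum of fibroblast markers was highest in LPD line 6 at 4084, against 614 to 1001 in the other LPD lines.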

How the results depend on the processing

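No paired analysis was possible because, by the study's methods, the lines come from different mothers and have no pairing. The number of genes with an unadjusted p under 0.05 was 721, and 549 to 904 on omitting single lines. No gene was under an adjusted p of 0.1 (limma), against 1 with array weights, 6 without LPD lines 4, 6 and 40, and 0 to 40 on omitting single lines. The 40 were found without LPD line 40, and 1 each without LPD line 1, LPD line 20 or NPD line 8. No member had an unadjusted p under 0.05, against 1 (Tcf7) without LPD lines 4, 6 and 40 and 0 to 1 on omitting single lines (Tcf7 without LPD line 40, Lef1 without NPD line 8, Notum without NPD line 15). No pair of members had an adjusted p under 0.05 under any alternative run. Small log2 fold changes took the other sign: Nkd1 was 0.0222 with array weights, Ctnnb1 was 0.0835 with log2 depth as a covariate, 0.005 without LPD line 4 and NPD line 15 and 0.0378 without LPD lines 4, 6 and 40, and Cdx1 was −0.0209 without LPD line 4 and NPD line 15. On omitting single lines, Lef1 ranged from −0.998 to 0.0241, Tcf7l1 from −0.17 to 0.0122, Nkd1 from −0.20 to 0.104 and Ctnnb1 from −0.10 to 0.0531, while Cdx1 ranged from 0.05 to 0.56 and Axin2 from 0.01 to 0.46 (0.71 without LPD lines 4, 6 and 40). The cause was not tested. Of the other results under the alternatives, 603 kept direction and side of the threshold or moved by less than the spread, 55 moved by more, 26 lost a p under 0.05 and 9 gained it. Depth limits the precision of Sp5, Lgr5 and Nkd1 most.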
